A study of Mus musculus with 12 samples.

Results

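The cytosolic ribosomal protein genes encode the protein subunits of the ribosomes that translate messenger RNA outside mitochondria. They were chosen on these arrays by symbol: Rps or Rpl followed by a number and at most a letter a, x, y or l, the stalk genes Rplp0, Rplp1 and Rplp2, and Rpsa. The rule found 88 probes of 59 genes among 45281 probes. A further condition, a detection p-value under 0.05 on at least 3 arrays, left 75 probes of 52 genes, 29 probes of 21 small subunit genes and 46 probes of 31 large subunit genes, among 22511 tested probes. The 52 genes are among 12173 genes with a tested probe of a single symbol. The rule reads symbols and detection, and it was set with earlier results of these data known. Just inside the detection condition lay a Rplp0 probe (ILMN_1249815) and the probe for Rpl3l, each detected on 4 arrays, and just outside lay a Rpsa probe (ILMN_2607253), detected on 2.

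Whole ovaries of FVB/N females at 14 dpn were profiled on 12 Illumina bead arrays in 4 groups of 3. The groups were Tg Foxo3-/-, NoTg Foxo3-/-, Tg Foxo3+/- and NoTg Foxo3+/-, where Tg ovaries carry a transgene and NoTg ovaries do not, so that no group is wild type for Foxo3. The series title names a constitutively active Foxo3 in oocytes. Not given in the sources used here are its promoter, the line and the kind of null allele. The comparisons ask what loss of the remaining Foxo3 allele and presence of the transgene each do to ovarian RNA. Whether the arrays of a group stand for different mice is not in the labels, and a p-value therefore reflects only variation among these 12 samples.

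Every ribosome joins a small subunit, which reads the message, to a large subunit, which forms the peptide bonds and carries a lateral stalk that recruits elongation factors. Messenger RNAs of ribosomal proteins are among the most abundant in any cell, and a growing oocyte builds up a large store of ribosomes. Many of these messages start with an uninterrupted run of pyrimidines, the terminal oligopyrimidine motif, through which their translation follows growth signals of the mTOR pathway. FOXO3 acts in the oocyte to hold primordial follicles at rest, downstream of the kinases that also feed into that pathway.

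Start sites of some members are shown because this shared sequence feature played no part in choosing them. The sequences are RefSeq's for build GRCm38.p6, run 5′ to 3′ on the gene's strand, and hold 15 bases before and 15 bases from the annotated start. Capitals mark the longest run of C and T in each.
Rpl28 (chr7:4792950-4792979, plus strand): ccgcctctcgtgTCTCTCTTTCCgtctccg
Rpl38 (chr11:114668565-114668594, plus strand): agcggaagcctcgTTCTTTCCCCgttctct
Rps6 (chr4:86857353-86857382, minus strand): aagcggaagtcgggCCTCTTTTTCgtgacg
Rpl41 (chr10:128549154-128549183, minus strand): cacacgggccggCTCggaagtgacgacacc
Rps13 (chr7:116334176-116334205, minus strand): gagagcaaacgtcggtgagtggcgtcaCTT
Rps4x (chrX:102189377-102189406, minus strand): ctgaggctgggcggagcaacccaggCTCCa
Rpl28, Rpl38 and Rps6 had runs of 11, 10 and 10 bases lying across the start, whereas the windows of Rpl41, Rps13 and Rps4x had no run longer than 4. The run in Rps13 reaches the end of its window, so its full length is not known here. Annotated starts were not checked against RNA ends, and a short run does not show that a gene lacks the motif. Windows could be matched to 43 of the 52 detected genes and numbered 53, since some genes have several annotated starts. A run of at least 6 was present in 28 of the 53 (52.8%) and in 9592 of all 32851 windows of the table (29.2%). Such a run could lie anywhere in the window, before the start included, so these are not counts of the terminal oligopyrimidine motif. In the wider window of 250 bases before and 50 after the start, CCGGAAG, the core bound by the Ets factor GABP, was found on either strand in 20 of 53 member windows (37.7%), against 8.86% of all windows. AAGATGG, the core bound by YY1, was found in 7 (13.2%), against 6.34%. These counts describe letters in the windows and were not related to binding.

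Ribosomal protein probes were among the brightest on the arrays. Their median log2 intensity, averaged over the 12 arrays, was 13.45, with the middle of the distribution between 10.55 and 14.26, against a median of 7.10 over all tested probes. Of the 75 members, 46 were in the top 1% of all probes. The brightest were Rpl41, which encodes the shortest ribosomal protein, at 15.19 and Rplp1, a stalk protein, at 15.14. The dimmest were the Rplp0 probe at 4.64 and Rpl3l, a form of Rpl3 typical of striated muscle, at 4.81, both near background. Brightness also depends on the probe, so these values rank signals and not RNA amounts.

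**Figure D1:**
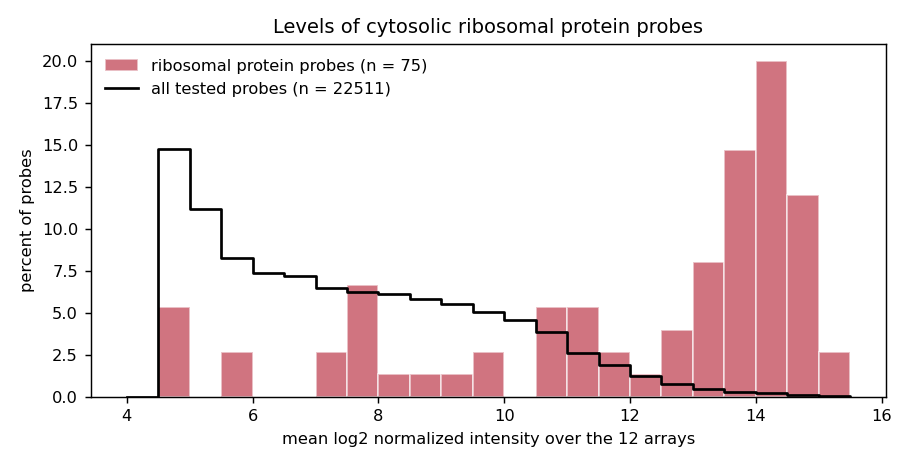
Percent of probes (vertical axis) by mean log2 normalized intensity over 12 arrays in bins of 0.5 (horizontal axis), for 75 ribosomal protein probes (bars) and all 22511 tested probes (line). The members gather at the bright end, with a median of 13.45 against 7.10.

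No probes shared the highest raw intensity of an array, but whether bright signals were compressed short of such ties was not tested. The highest raw intensity of an array lay between 36422 and 45015, and on each array 1 probe reached it. Rpl41 was that probe on 6 arrays and Rplp1 on 2. In all, 26 member probes reached at least 50% of the highest value on some array, and 8 exceeded 80%. Their residual SD was smaller, with a median of 0.087 log2 units, against 0.169 for the other 49 members and 0.194 for all tested probes.

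Quantile normalization sets a further limit for the brightest members, because the top probe of every array receives the same value, a log2 intensity of 15.29. Rpl41 stood at this value on all Tg Foxo3-/- arrays (15.29, 15.29 and 15.29), against 14.88, 15.09 and 15.29 in Tg Foxo3+/-. It read 15.23, 15.07 and 15.29 in NoTg Foxo3-/-, against 15.29, 15.23 and 15.09 in NoTg Foxo3+/- ovaries. A higher level than that of the top probe cannot show in these values.

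Of the 75 tested members, 71 were detected on all 12 arrays. The other 13 annotated probes were not tested, and 9 of them were detected on no array. They leave 7 genes without a tested probe, namely Rpl14, Rpl17, Rpl6, Rps20, Rps23, Rpsa and Rpl39l. All but Rpl39l, a copy of Rpl39 known from testis, encode subunits of every ribosome, so a dim probe says nothing of the gene's level.

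Arrays were alike, with correlations between 0.977 and 0.994 and 20072 to 22015 detected probes. The tested Foxo3 probe, 1 of 3 annotated, was not lower without Foxo3. It read 8.20 to 8.37 in Tg Foxo3-/- against 7.87 to 8.13 in Tg Foxo3+/-, and 8.18 to 8.65 in NoTg Foxo3-/- against 7.81 to 8.44 in NoTg Foxo3+/- ovaries. Its place relative to the deleted part is not known here, so it does not check the genotype. Array background was lower in Tg (68.2 ± 3.20 raw intensity, SD, n = 6) than in NoTg ovaries (79.4 ± 1.86, n = 6), with an exact two-sided permutation p of 0.00216. It also separated the Foxo3 groups. Background was 68.5 to 74.2 in Tg Foxo3-/-, against 65.4 to 67 in Tg Foxo3+/- ovaries. In NoTg Foxo3-/- it was 79.9 to 81.2, against 76.3 to 79.8 in NoTg Foxo3+/- ovaries. Group and array background therefore cannot be told apart here.

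A library that stands apart bears on the family as a whole. On Tg Foxo3+/- replicate 1, 60 of the 75 member probes lay below their own mean over the arrays, with a median deviation of -0.17 log2 units. The medians of the other 11 arrays lay between -0.01 and 0.05. This array was the lowest of the 12 for 39 members (52%), against 9.98% of all tested probes. The members took 3.87% of its raw signal, against 4.47% to 4.91% on the other arrays.

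Markers of ovarian cells and the RNA polymerase I list also stood apart on that array. The 9 measured granulosa cell markers were on average 0.63 above their means, against -0.45 to 0.18 on the other arrays. The 4 measured red cell markers were 1.04 below theirs (mean deviation -1.04), against -0.32 to 0.53 elsewhere. The array was also the highest of the 12 for smooth muscle markers (0.56, next 0.40) and the lowest for oocyte markers (-0.25, next -0.18) and RNA polymerase I genes (-0.24, next -0.04). The part of these lists in the family's low value was not tested. In whole ovaries, fewer cells of a type and less RNA per cell cannot be told apart.

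**Figure D2:**
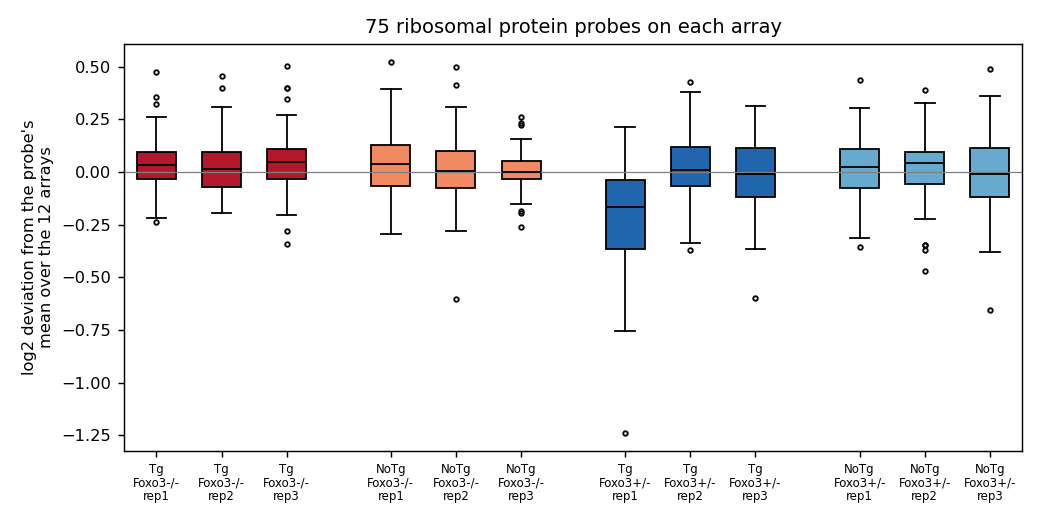
Log2 deviation of each of the 75 ribosomal protein probes from its mean over 12 arrays (vertical axis), per array (horizontal axis); boxes span the quartiles with the median, whiskers reach at most 1.5 box lengths, and circles are probes beyond. The box of Tg Foxo3+/- replicate 1 sits low with a median of -0.17, while the other medians lie between -0.01 and 0.05.

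In the presence of the transgene, 1 ribosomal protein probe passed the threshold for loss of Foxo3. With called meaning limma's Benjamini-Hochberg adjusted p under 0.05 over all tested probes, 1 of 75 members was called, a share of 1.33% beside 2.18% of all tested probes. The called probe was Rps4l (ILMN_2737090), which RefSeq annotates as a transcribed pseudogene. The other 87 member probes belong to genes annotated as protein-coding.

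Rps4l was higher in every null ovary. Its log2 intensity was 9.67, 9.62 and 9.82 in Tg Foxo3-/- ovaries, against 8.84, 9.08 and 8.72 in Tg Foxo3+/- ovaries. The groups did not overlap, and the log2 difference was 0.82 ± 0.13 (SE), or 1.77-fold, with a limma adjusted p of 0.00236. Without the transgene it was 9.66, 9.49 and 9.58 in NoTg Foxo3-/- ovaries, against 8.96, 9.30 and 9.05 in NoTg Foxo3+/- ovaries. These groups did not overlap either, but the difference of 0.47 ± 0.13, or 1.39-fold, did not pass (limma adjusted p = 0.0894). The difference between these effects was 0.35 ± 0.18 (limma adjusted p = 0.994), so the Foxo3 effect was not shown to depend on the transgene.

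The call for Rps4l depended on the processing. Over all tested probes 491 were called, against 54 with median scaling and 17 with array background as a covariate. The Rps4l call was lost with median scaling (log2 difference 0.70, limma adjusted p = 0.0891) and with the covariate (0.81, adjusted p = 0.148). Because array background did not overlap between the groups compared, the covariate fit cannot separate background from genotype. It held with every other alternative run, the lowest adjusted p being 0.000457, and without each array in turn, without Tg Foxo3+/- replicate 1 included (0.80, adjusted p = 0.00882). Rps4x, the X-linked gene of a small subunit protein after which Rps4l is named, had overlapping groups. Its log2 intensity was 14.77, 14.66 and 14.54 in Tg Foxo3-/-, against 14.74, 14.63 and 14.72 in Tg Foxo3+/- ovaries, and the log2 difference was -0.04 ± 0.08 (limma adjusted p = 0.857). How much RNA of Rps4x or of other copies the Rps4l probe binds is not known here, since probe sequences were not used.

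Markers of several ovarian cell types differed between the same groups as Rps4l. The 13 oocyte markers, all measured and detected, had a summed normalized intensity of 107104 to 110200 in Tg Foxo3-/- ovaries, against 82573 to 88033 in Tg Foxo3+/- ovaries. Without the transgene the sums were 108294 to 114496 in NoTg Foxo3-/-, against 88167 to 94319 in NoTg Foxo3+/- ovaries. By gene, 11 of the 13 were above 0 and 2 below with the transgene (null minus heterozygous, median 0.24, lowest -0.32), and 9 above and 4 below without it (median 0.16, lowest -0.26). In each comparison 2 were called, both higher. They were Zp3 and Zp1, which encode proteins of the egg coat. Zp3 differed by 0.87 with the transgene (limma adjusted p = 0.000118) and by 0.55 without it (adjusted p = 0.00661), and Zp1 by 0.84 (adjusted p = 0.00044) and 0.54 (adjusted p = 0.0206).

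Other lists separated the groups in the opposite direction. The 8 stroma markers summed to 20696 to 21720 in Tg Foxo3-/-, against 26263 to 28232 in Tg Foxo3+/-, and to 21058 to 22514 in NoTg Foxo3-/-, against 24911 to 30051 in NoTg Foxo3+/- ovaries. By gene, 5 of the 8 were below 0 and 3 above in each Foxo3 comparison. Of the 8, 2 were called lower with and 1 without the transgene. The 9 measured surface epithelium markers summed to 2608 to 2993 in NoTg Foxo3-/-, against 3696 to 4158 in NoTg Foxo3+/-, with sums that overlapped in Tg ovaries (2679 to 3334 in Tg Foxo3-/-, against 3332 to 3761 in Tg Foxo3+/-). Of the 3 measured adipose markers, 1 was called lower with and 2 without the transgene, and in each comparison 1 was above 0. The part of these cell types in the Rps4l difference was not tested.

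Other members came near the threshold with the transgene and did not pass it. At an unadjusted p under 0.05 there were 9 of 75 members (12%), beside 16.6% of all tested probes. Rps13, a protein of the small subunit near the subunit interface, had values of 13.51, 13.35 and 13.47 in Tg Foxo3-/-, against 12.79, 13.24 and 13.08 in Tg Foxo3+/- ovaries. The groups did not overlap and differed by 0.41 ± 0.11 (limma adjusted p = 0.0623). The dimmer Rps13 probe differed by -0.01.

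Rpl38, a large subunit protein known from mouse mutants with patterning defects of the skeleton, was measured by a bright and a dim probe. The dim probe read 10.22, 10.14 and 10.09 in Tg Foxo3-/-, against 8.51, 9.94 and 9.60 in Tg Foxo3+/- ovaries, a difference of 0.80 ± 0.24 (limma adjusted p = 0.0969). Replicate 1 of Tg Foxo3+/- lay more than a log2 unit below its group, and without it the difference was 0.38. Without replicate 2 of that group it was 1.10 and was called (limma adjusted p = 0.0278), the adjusted p over all alternatives lying between 0.0278 and 0.619. The bright probe read 14.59, 14.72 and 14.68 in Tg Foxo3-/-, against 14.08, 14.82 and 14.74 in Tg Foxo3+/- ovaries, with overlap and a difference of 0.12.

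Rps29, a small zinc-binding protein of the small subunit, showed the same dependence on that array. Its values were 14.78, 14.77 and 14.66 in Tg Foxo3-/-, against 13.70, 14.52 and 14.63 in Tg Foxo3+/- ovaries. The difference of 0.45 ± 0.18 (limma adjusted p = 0.20) was 0.16 without replicate 1 of Tg Foxo3+/-.

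**Figure D3:**
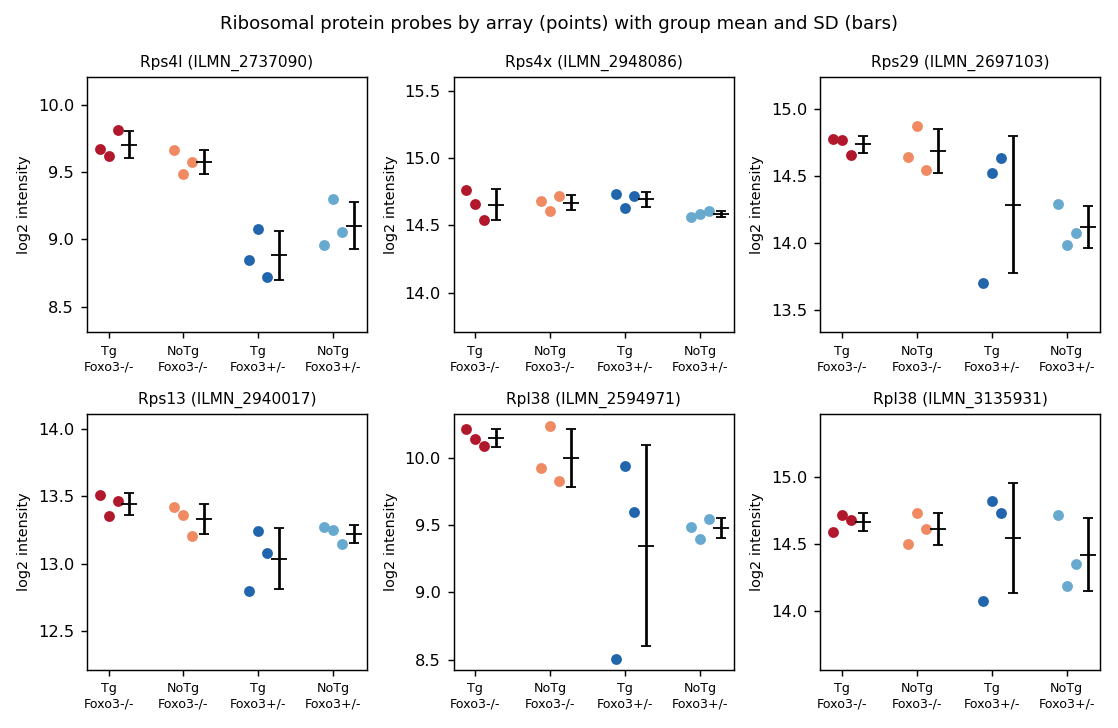
Log2 normalized intensity (vertical axis, the same span in every panel) of 6 ribosomal protein probes in Tg Foxo3-/-, NoTg Foxo3-/-, Tg Foxo3+/- and NoTg Foxo3+/- ovaries; points are arrays, replicate 1 to the left, and bars are group means ± SD (n = 3). Rps4l separates null from heterozygous ovaries in both transgene states, Rps4x does not, and Tg Foxo3+/- replicate 1 is the lowest array for Rps29, Rps13 and both Rpl38 probes.

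Complete separation of the groups was counted in each direction. With the transgene, 11 member probes had all Foxo3-/- values above all Foxo3+/- values (14.7% of members, beside 12.9% of all tested probes), and 1, Rpl3, was lower in every one (1.33%, beside 11.7%). Those higher were Rpl28, Rpl29, Rpl37, Rpl38, Rpl3l, Rps12, Rps13, Rps29, Rps4l and 2 probes of Rpl31. For Rpl28, Rpl37 and Rpl38 these were the dimmer probes, and the bright probes of these genes overlapped. The Rpl37 probe had a mean log2 intensity of 4.90, near background. Rpl3l was detected on no Tg Foxo3+/- array and on 1 of Tg Foxo3-/-, so no fold is given for it. Rpl3, which lies at the peptide-bond-forming centre, read 14.09, 13.95 and 14.11 in Tg Foxo3-/-, against 14.31, 14.19 and 14.21 in Tg Foxo3+/- ovaries.

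Over the family as a whole, differences between Tg Foxo3-/- and Tg Foxo3+/- ovaries were small and mostly above 0. The median log2 difference over the 75 members was 0.08, against -0.001 over all tested probes, and 56 members were above 0. It was within 0.2 of 0 for 58 members. Without Tg Foxo3+/- replicate 1 the median was 0.018. It kept its sign with the other scalings, at 0.083 with median scaling, where the median of all probes was -0.083, and at 0.066 with the authors' deposited normalized intensity. Among the 26 probes at 50% or more of an array's highest value the median was 0.064, and among the other 49 it was 0.10.

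Without the transgene, no ribosomal protein probe passed the threshold for loss of Foxo3. Limma called 0 of 75 members, beside 0.911% of all tested probes, and 4 members (5.33%) had an unadjusted p under 0.05, beside 14.7% of all. These were Rps4l, Rps29, a bright probe of Rps24 and the dim probe of Rpl38. With the replicate number as a block in a fit of these groups alone, 1 member was called, Rps29. The median log2 difference over the members was 0.001, against 0.006 over all tested probes, and 38 of 75 lay above 0. It was 0.085 with the authors' deposited normalized intensity and 0.09 with median scaling, where the medians of all probes were 0.08 and 0.139.

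Rps29 had the widest difference of the family in this comparison. Its values were 14.64, 14.87 and 14.55 in NoTg Foxo3-/-, against 14.29, 13.99 and 14.08 in NoTg Foxo3+/- ovaries. The groups did not overlap, and the log2 difference was 0.57 ± 0.18 (limma adjusted p = 0.134). It passed when Tg Foxo3+/- replicate 1, an array of neither group, was left out (0.57, limma adjusted p = 0.00951). It also passed in the fit of both groups alone with the replicate block (0.57, limma adjusted p = 0.0205), an alternative chosen after seeing the data. Over all its alternatives the adjusted p lay between 0.00951 and 0.350.

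The dim Rpl38 probe also passed without that array. It read 9.92, 10.24 and 9.83 in NoTg Foxo3-/-, against 9.49, 9.40 and 9.55 in NoTg Foxo3+/- ovaries. The difference was 0.52 ± 0.24 (limma adjusted p = 0.330), and 0.52 with an adjusted p of 0.0490 without that array, where the alternatives reached an adjusted p of 0.615. The bright Rpl38 probe differed by 0.19 ± 0.16 (limma adjusted p = 0.620).

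Among members that were lower, Rps24, whose gene makes several spliced forms, and Rpl36a were nearest the threshold. The bright Rps24 probe (ILMN_3126986) differed by -0.21 ± 0.09 (limma adjusted p = 0.280). Rpl36a, a large subunit protein, read 12.42, 12.48 and 12.33 in NoTg Foxo3-/-, against 12.75, 12.68 and 12.66 in NoTg Foxo3+/- ovaries. These groups did not overlap, with a difference of -0.29 ± 0.14 (limma adjusted p = 0.343).

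In this comparison 4 members were higher in every null ovary (5.33%, beside 9.11% of all tested probes), namely Rpl38, Rps12, Rps29 and Rps4l. A further 6 were lower in every null ovary (8%, beside 8.74%), namely single probes of Rpl19, Rpl21, Rpl36a, Rplp0, Rps19 and Rps24. For Rps19 this was the dim probe, and the bright Rps19 probe differed by 0.06. For Rps24 it was the bright probe, and the dimmest Rps24 probe differed by 0.23. The NoTg and the Tg comparison share no array. All 4 of the higher members were also among the 11 higher with the transgene, 4 of 4 and 4 of 11. Over all tested probes, 806 were higher in both, 39.3% of 2050 without and 27.7% of 2912 with the transgene. The members' log2 differences in the NoTg and Tg comparisons had a Pearson r of 0.57 over 75 probes, beside 0.53 over all 22511, and some members share a gene.

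**Figure D4:**
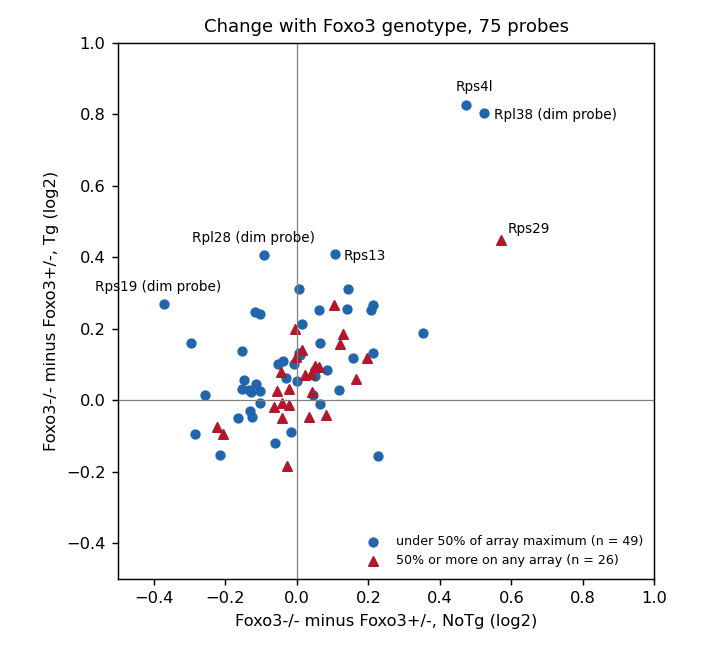
Log2 difference of Foxo3-/- minus Foxo3+/- ovaries for each of the 75 ribosomal protein probes, without the transgene (horizontal axis) and with it (vertical axis); triangles are the 26 probes that reached 50% of an array's highest value. Most points lie within 0.2 of 0 on each axis, and Rps4l, the dim Rpl38 probe and Rps29 lie farthest to the upper right.

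The subunits were set beside each other. In NoTg ovaries the median difference, null minus heterozygous, was 0.05 over 29 small subunit probes, with 20 above 0, and -0.04 over 46 large subunit probes, with 18 above 0. In Tg ovaries it was 0.07 over the small and 0.08 over the large subunit probes. No test was made between the subunits, since probes are not replicates, and these medians were not recomputed with other scalings.

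No ribosomal protein probe passed the threshold for the transgene in Foxo3+/- ovaries. Limma called 0 of 75 members, beside 0.364% of all tested probes, and 6 members (8%) had an unadjusted p under 0.05, beside 9.96% of all. The median log2 difference, Tg minus NoTg, was -0.07 over the members, against 0.02 over all tested probes, with 53 members below 0. The median was -0.004 without Tg Foxo3+/- replicate 1, -0.001 with median scaling, where the median of all probes was 0.13, and it turned to 0.01 with array background as a covariate.

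The members with the smallest p were Rps24, Rpl29, Rps3, Rplp0 and Rpl26. A dim Rps24 probe (ILMN_2625060) read 8.95, 8.58 and 8.71 in Tg Foxo3+/-, against 9.09, 9.23 and 9.16 in NoTg Foxo3+/- ovaries, a difference of -0.41 ± 0.13 (limma adjusted p = 0.203). Rpl29, a large subunit protein also known to bind heparin, read 10.79, 11.14 and 11.05 in Tg Foxo3+/-, against 11.52, 11.48 and 11.18 in NoTg Foxo3+/- ovaries. Its difference was -0.40 ± 0.13 (limma adjusted p = 0.217).

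Neither of these members overlapped between groups, and both were called when arrays were weighted by quality, Rps24 at -0.53 (limma adjusted p = 0.0105) and Rpl29 at -0.39 (adjusted p = 0.0407). For each, the highest adjusted p over the alternatives was 0.999. Rps3, which lines the channel where messenger RNA enters, differed by -0.35 ± 0.12 at its dimmer probe (limma adjusted p = 0.294) and by 0.02 at its brighter one. Rplp0, the base of the stalk, differed by -0.29 ± 0.11 at its brighter probe (limma adjusted p = 0.309), and Rpl26 of the large subunit by -0.23 ± 0.09 (adjusted p = 0.379). Complete separation was seen for 9 lower members (12%, beside 7.84% of all tested probes), namely Rpl26, Rpl27a, Rpl29, Rps24, Rps3, 2 probes of Rpl31 and 2 of Rplp0. It was seen for 1 higher member, Rps4x (1.33%, beside 7.04%).

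In Foxo3-/- ovaries no member passed for the transgene either. Limma called 0 of 75, beside 0.191% of all tested probes, and 1 member, a dim Rps19 probe, had an unadjusted p under 0.05 (1.33%, beside 10.5%). Rps19 is the small subunit protein most often mutated in human Diamond-Blackfan anaemia. Its dim probe read 5.68, 6.03 and 5.67 in Tg Foxo3-/-, against 5.28, 5.32 and 5.31 in NoTg Foxo3-/- ovaries, a difference of 0.49 ± 0.19 (limma adjusted p = 0.341). The raw intensities of this probe overlapped, at 115.4, 117.6 and 101.3 against 111.8, 115.2 and 112.2. They lay little above array background, which was 68.5 to 74.2 in Tg and 79.9 to 81.2 in NoTg Foxo3-/- ovaries. The part of background in the difference was not tested. The bright Rps19 probe differed by 0.03 here.

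The other members nearest the threshold here were Rps16, at -0.21 ± 0.10 (limma adjusted p = 0.485), a Rpl31 probe at 0.21, Rpl29 at -0.24 and the dim Rpl28 probe at 0.26. Complete separation was seen for 5 higher members (6.67%, beside 8.79%), namely Rpl27, Rpl28, Rps19 and 2 probes of Rpl21. It was seen for 2 lower members, Rplp0 and Rps16 (2.67%, beside 8.79%). The median difference was 0.02 over the members and 0.02 over all tested probes. It was -0.06 with the authors' deposited normalized intensity, where the median of all probes was -0.10, and 0.09 with background as a covariate. Of the 75 members, 68 lay within 0.2 of 0.

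The interaction asks whether the Foxo3 effect differs with the transgene. Limma called 0 of 75 members and 0% of all tested probes, and 3 members (4%) had an unadjusted p under 0.05, beside 4.23% of all. These were the dim Rps19 probe at 0.64 ± 0.27, a Rpl31 probe at 0.36 ± 0.15 and the dim Rpl28 probe at 0.50 ± 0.22, each with a limma adjusted p of 0.994. Raw intensities of this Rps19 probe lay little above array background. The median over the members was 0.10 with 58 above 0, against -0.002 over all tested probes. Without Tg Foxo3+/- replicate 1 the median was -0.002, and with median scaling it was -0.03, where that of all probes was -0.23.

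Values of core members were read by subunit, small subunit first. Rps6, the protein phosphorylated when mTOR signalling is active, differed between null and heterozygous ovaries by 0.12 with and 0.16 without the transgene. Rps14, which lies at the decoding platform, differed by -0.01 and -0.02. Rps2, at the entry channel, differed by -0.05 and 0.04 at its brighter probe. Rps27l, a p53-responsive paralog of Rps27, differed by 0.10 and -0.01. None of these passed in any of the 5 comparisons.

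In the large subunit, Rpl4, which lines the exit tunnel, differed by -0.15 with and -0.22 without the transgene, and Rpl39 at the tunnel's end by 0.14 and 0.01. Rpl13a, also known as a translational silencer in human cells, differed by 0.31 ± 0.12 (limma adjusted p = 0.212) with and 0.01 without the transgene. When arrays were weighted by quality, Rpl13a was called with the transgene (0.35, limma adjusted p = 0.0379). Rpl7a and Rpl10a differed by 0.05 and 0.03 with the transgene and by -0.12 and -0.06 without it. Rpl22, whose loss impairs T cell development in mice, differed by -0.03 and -0.13. Of the stalk proteins, Rplp1 differed by 0.08 and -0.04 and Rplp2 by -0.08 and -0.22. In the main model none of these passed in any of the 5 comparisons.

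Probes of the same gene often disagreed. Of the 52 genes, 17 had more than 1 tested probe, 40 probes in all. The brightest and dimmest probe of a gene were more than 3 log2 units apart in 12 of the 17, with a median gap of 4.82. All probes of a gene had the same sign in 10 of 17 genes for the Foxo3 comparison with the transgene and in 10 without it. For the transgene this held in 10 genes in Foxo3-/- and in 6 in Foxo3+/- ovaries.

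The 5 genes whose probes differed most, by their widest gap in log2 difference over the comparisons, were Rpl38 at 0.68, Rps24 at 0.65, Rpl29 at 0.48, Rps19 at 0.46 and Rps13 at 0.42. For Rps24 the transgene effect in Foxo3+/- ovaries ranged over its 3 probes between -0.41 and 0.24. Both Rps12 probes, at 14.82 and 14.82, differed by 0.19 and 0.02 with Foxo3 loss in Tg ovaries. Ribosomal protein genes have many processed copies, and which transcripts each probe binds was not examined.

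**Figure D5:**
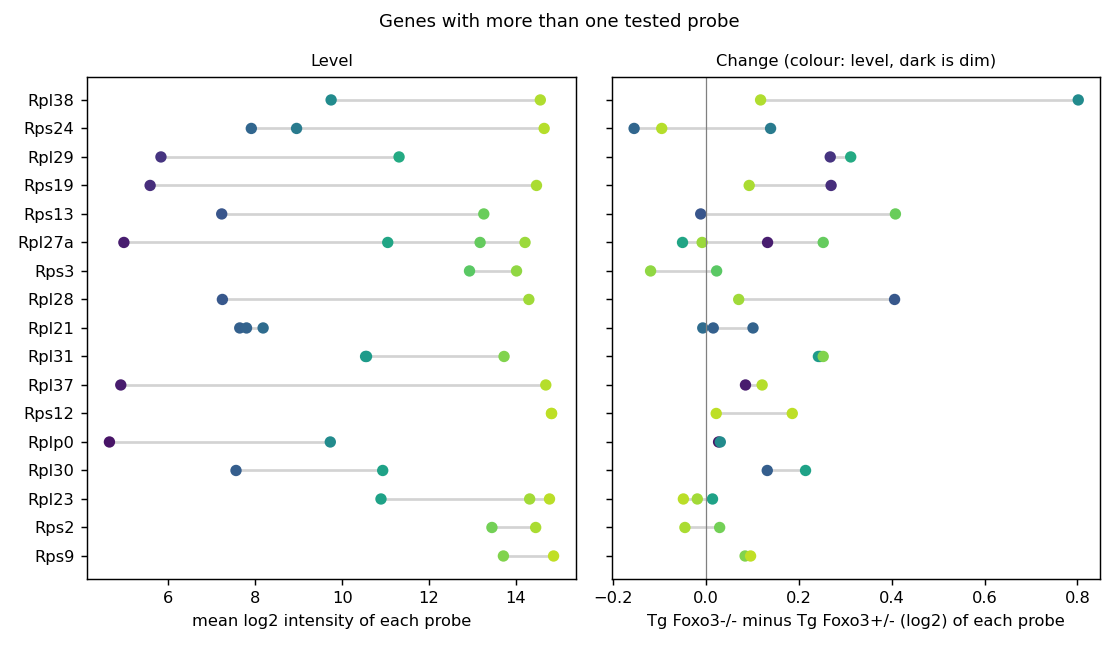
Genes with more than 1 tested probe (17 rows); the left panel gives each probe's mean log2 intensity and the right panel its log2 difference, Tg Foxo3-/- minus Tg Foxo3+/-, with darker points for dimmer probes and grey lines joining probes of a gene. Rpl38 and Rps13 show the widest spread in the right panel, between 0.12 and 0.80 and between -0.01 and 0.41.

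Other parts of the translation machinery were measured beside the family, from lists chosen with earlier results known. The mitochondrial ribosomal proteins, which serve translation inside mitochondria, had 73 of 76 genes measured. By the brightest probe of each gene, Mrps16 was the call among them, higher in Tg Foxo3-/- than in Tg Foxo3+/- ovaries by 0.45 (limma adjusted p = 0.0343). A dimmer probe of Mrpl13 was lower in Tg than in NoTg Foxo3+/- ovaries by a log2 difference of -0.98 (limma adjusted p = 0.0392). Over their 114 probes the median difference was 0.15 with and 0.05 without the transgene, beside 0.08 and 0.001 for the cytosolic members.

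Among 34 measured ribosome assembly factors, Riok1, a kinase of small subunit maturation, was called in Tg against NoTg Foxo3+/- ovaries, where it was lower (log2 difference -0.77, limma adjusted p = 0.0240). No other call was made among them. The median over these 34 genes, null minus heterozygous, was 0.07 with and 0.12 without the transgene. None of 17 elongation factors and other pyrimidine-tract messages, 13 RNA polymerase I genes and 13 regulators of such messages was called by limma in any of the 5 comparisons. The elongation and pyrimidine-tract list had a median of -0.10 with the transgene, with 15 of 17 below 0, and 0.0002 without it, with 8 of 17 below 0. The polymerase list had medians of 0.14 and 0.11, and the regulators 0.01 and 0.12.

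At an unadjusted p under 0.05 there were 16 of 73 mitochondrial ribosomal proteins (21.9%) and 7 of 34 assembly factors (20.6%) for Foxo3 loss with the transgene, beside 16.6% of all tested probes. The highest count of the polymerase genes was 4 of 13 (30.8%), for the transgene in Foxo3+/- ovaries, beside 9.96% of all. That comparison holds Tg Foxo3+/- replicate 1, the lowest array for this list, and the count was not recomputed without it. The regulators had at most 4 of 13 (30.8%) and the elongation factors and such messages at most 3 of 17 (17.6%). Both of these were for the transgene in Foxo3-/- ovaries, beside 10.5% of all. Over the 5 comparisons the counts were 3 to 16 for mitochondrial ribosomal proteins, 1 to 7 for assembly factors, 0 to 4 for polymerase genes, 0 to 4 for regulators and 0 to 3 for the elongation list, beside 4.23% to 16.6% of all tested probes.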

How the data were processed

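Total RNA of 12 ovaries was hybridised as biotin-labelled cRNA, per the labels' protocols. The deposited raw table holds, per the file headers, a linear intensity and a detection p-value for each probe and array, not normalized. The table of intensity normalized by the authors served only as an alternative after log2; how it was normalized was not stated in the labels or headers. Background was corrected with limma 3.58.1 (R 4.3.3) by normexp from the detection p-values with an offset of 16, then values were quantile-normalized and logged. Probes passing a detection p-value of 0.05 on 3 or more arrays, 22511 in number, entered a model with a mean per group (lmFit, eBayes with intensity trend) and 5 contrasts, with Benjamini-Hochberg adjustment over all of them, two-sided. The model was tested on simulated data. Gene names come from the array's annotation table, and 34807 probes matched RefSeq (GRCm38.p6) by gene identifier. Members, lists and rules for naming genes were chosen with earlier results of these data known. Named were called members, otherwise the 5 of smallest p, a list of members by role, the brightest and dimmest, the 5 genes with the widest gap between probes and list genes of smallest p; genes with separated groups were named after their values were seen. Replicate numbers carry no stated meaning in the labels, but in the comparison of NoTg groups all 3 same-numbered pairs deviated together. Correlations of deviations from group means were 0.172, 0.175 and 0.195, against -0.154 to -0.038 for the 6 other pairs. Deviations from a mean of 3 sum to 0, which pushes the other pairs down when these are up. The numbers were taken to pair these arrays in alternative fits only, and the main model is unpaired. In the other comparisons at least 1 same-numbered pair was under 0.1, and pairs of different number reached 0.217 and 0.212. Chips and hybridisation days were not stated and could not be modelled. The number of arrays limits precision. Windows around starts were read with Python 3.11.15 and pandas 2.3.3.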

Additional observations from a re-analysis of the deposited data

How the results depend on the processing

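Results were recomputed without background correction, with median scaling or the authors' values, with no filter or a stricter one (p under 0.01 on at least 6 arrays), array weights, background as a covariate, no intensity trend, only the compared groups, the brightest probe of each gene, members under 50% of an array's highest value, a replicate block and each array left out. With no filter, probes at background enter. Array background did not overlap between the groups of the Foxo3 and transgene comparisons, so the covariate fit cannot separate it from group. Signal over background limits the dim probes, and the top of the scale limits Rpl41 and Rplp1.

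The count of called members with Foxo3 loss in Tg ovaries, 1 here, was 0 with median scaling (54 called of all tested probes), 0 with the background covariate (17) and 3 with array weights (2698), against 491 of all tested probes here. In NoTg ovaries it was 1 with the authors' values (Rps4l, 0.55, limma adjusted p = 0.0483) and 1 with array weights (Rps29, 0.59, adjusted p = 0.0188), and for the transgene in Foxo3+/- 2 with array weights. The member median with Foxo3 loss in NoTg ovaries was 0.085 with the authors' values (median of all probes 0.080) and 0.090 with median scaling (0.139). For the transgene in Foxo3+/- it was 0.014 with the covariate and -0.00063 with median scaling. For the transgene in Foxo3-/- it was 0.094 with the covariate and -0.056 with the authors' values. For the interaction it was -0.011 with the authors' values (median of all probes -0.093) and -0.028 with median scaling (-0.229). The cause was not tested.

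Leaving out each array gave counts of 1 to 3 with Foxo3 loss in Tg ovaries, 0 to 2 in NoTg ovaries and 0 in the other 3 comparisons. The member medians ranged between 0.018 and 0.117 in Tg and between -0.029 and 0.017 in NoTg ovaries for Foxo3 loss. They ranged between -0.0037 and 0.020 for the transgene in Foxo3-/-, between -0.111 and -0.0039 in Foxo3+/- and between -0.0024 and 0.134 for the interaction. The count of 2 in NoTg ovaries and the lowest Tg median are those without Tg Foxo3+/- replicate 1.

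With the number as a replicate block over all groups, 1 member was called with Foxo3 loss in Tg ovaries (Rps4l, 0.82, limma adjusted p = 0.00435), with 0 in the other 4 comparisons. In the fit of the NoTg groups alone with a replicate block, chosen after seeing the data, 1 member was called (Rps29, 0.57, limma adjusted p = 0.0205; 270 of all tested probes), against 0 in those groups alone without the block (47) and 0 here (205). The adjusted p of Rps29 lay between 0.00951 and 0.350 over its alternatives, and that of Rps4l in NoTg ovaries between 0.0483 and 0.277.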
